A study of Mus musculus with 4 samples.

Results

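Cavin-1, formerly called PTRF, builds the coat of caveolae together with a small set of other proteins, and the expression of 8 of those partner genes is described here in nuclei of mouse inguinal white adipose tissue. The genes were taken by symbol from the deposited matrices: the caveolins Cav1 and Cav2, the cavins Cavin2 and Cavin3, the neck proteins Ehd2, Pacsin2 and Pacsin3, and the receptor Ror1. They are 8 of 53715 gene rows, and each of the 8 was found in the files. Cavin1 itself is left out and serves only as a check of the genotype labels. The study, whose title concerns a distal enhancer of Ptrf, profiled single nuclei of this groin fat pad at an age of 6 months, in the C57BL/6N strain. There are 2 libraries labelled PTRF knockout and 2 labelled wild type, and each title gives its own numbered mice. Whether a library holds 1 mouse or several pooled is not stated, so p-values measure the spread between these samples. The labels state neither the allele nor any promoter or Cre line behind the knockout. Nothing else in the labels differs between the groups.

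Caveolae are flask-shaped inward folds of the cell surface, abundant in fat cells and vascular endothelium, where they take part in buffering membrane tension, in lipid handling and in signalling. Caveolins insert into the membrane as oligomers, cavins assemble on them as a peripheral coat, and the ATPase EHD2 and the F-BAR proteins of the pacsin family sit at the neck of the pit. ROR1, a receptor tyrosine kinase-like protein of Wnt5a signalling, has been described in human cancer cells as a scaffold for cavin-1 and caveolin-1. Loss of cavin-1 in mice and people removes caveolae and leads to lipodystrophy.

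Cavin1 goes against the labels. Over all nuclei 730 and 1759 Cavin1 UMIs (unique molecular identifiers, counted transcripts) were found in the libraries labelled knockout 1 and 2, against 40 and 9 in wild type 1 and 2 as labelled. Scaled to a common library size (CPM), these were 47.9 and 57.3 against 2.02 and 0.937, a log2 difference of 5.08 ± 0.54 (SE, n = 2 libraries per group, adjusted p = 1.05e-16, edgeR quasi-likelihood test). In adipocyte nuclei the Cavin1 CPM were 95.1 and 98.3 in the libraries labelled knockout, against 3.561 and 1.150 in those labelled wild type. The labels do not say which exons the knockout lacks. The groups are therefore called by their labels throughout, and the libraries labelled knockout are the ones rich in Cavin1. The names of the deposited files also carry the genotype opposite to the labels. If those names are right, every label difference below has the opposite sign by genotype.

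The 8 partners lie on 6 chromosomes of GRCm38 (coordinates from GENCODE M21). Cav2 at chr6:17281185-17289115 and Cav1 at chr6:17306335-17341452 are neighbours on the plus strand, with 17219 bases between them. Cavin2 is at chr1:51289126-51302960 on the plus strand, Cavin3 at chr7:105480083-105482300 on the minus strand, and Ehd2 at chr7:15946958-15967567 on the minus strand. Pacsin2 is at chr15:83375607-83464606 on the minus strand, Pacsin3 at chr2:91255954-91264679 on the plus strand, and Ror1 at chr4:100095791-100444765 on the plus strand. Ror1 spans 348975 bases, of which 1.65% are exonic, and no source used here says whether intronic reads were counted. Cav1 and Cav2 both lie inside the antisense gene Gm15581, and Cavin2 lies inside the antisense gene 9330175M20Rik. Gm15581 had 2682 UMIs over all libraries and 9330175M20Rik had 1601. These antisense genes were counted in rows of their own. Whether strand was used in counting is not given either, so some reads of these 3 members and of their antisense partners may have been exchanged.

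The promoters of 4 members are shown because Cav1, Cav2 and Cavin2 were highest in the same cell types while Ror1 was highest in others. Each line holds the 250 bases before the transcription start in RefSeq (GRCm38.p6), 5′ to 3′ on the plus strand of the chromosome, which is also the strand of these genes.
Cav1 (chr6:17306085-17306334): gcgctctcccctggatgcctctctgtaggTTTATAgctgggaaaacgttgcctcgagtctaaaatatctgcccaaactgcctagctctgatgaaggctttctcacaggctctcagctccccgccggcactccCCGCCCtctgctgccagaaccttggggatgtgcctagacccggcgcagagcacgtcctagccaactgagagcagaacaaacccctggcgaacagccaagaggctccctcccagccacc
Cav2 (chr6:17280935-17281184): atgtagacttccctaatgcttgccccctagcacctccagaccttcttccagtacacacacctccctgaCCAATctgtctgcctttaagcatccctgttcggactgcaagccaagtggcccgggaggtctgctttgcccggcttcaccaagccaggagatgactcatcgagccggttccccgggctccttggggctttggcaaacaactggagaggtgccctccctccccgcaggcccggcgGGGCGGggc
Cavin2 (chr1:51288876-51289125): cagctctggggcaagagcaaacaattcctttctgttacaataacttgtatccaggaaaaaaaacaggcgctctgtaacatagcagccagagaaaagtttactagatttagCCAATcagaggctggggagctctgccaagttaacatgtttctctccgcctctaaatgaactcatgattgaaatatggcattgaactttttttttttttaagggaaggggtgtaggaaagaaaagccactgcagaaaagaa
Ror1 (chr4:100095541-100095790): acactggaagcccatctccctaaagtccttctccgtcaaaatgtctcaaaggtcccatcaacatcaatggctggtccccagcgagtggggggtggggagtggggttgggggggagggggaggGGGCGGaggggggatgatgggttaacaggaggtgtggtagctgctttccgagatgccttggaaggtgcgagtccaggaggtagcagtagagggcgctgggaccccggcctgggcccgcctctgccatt
Capitals mark matches, on either strand, to 6 short motifs that were searched: the TATA element TATAAA, the NF-Y box CCAAT, the GC box of SP1 factors GGGCGG, the ETS factor motif CCGGAA, the TEAD factor motif GGAATG and the direct repeat that binds PPARγ with RXR. The Cav1 window holds TATAAA and GGGCGG, both on the minus strand and so printed as TTTATA and CCGCCC, which begin 221 and 118 bases before the start. A second Cav1 start is listed, and its window (chr6:17307390-17307639, not shown) holds none of the 6 motifs. The Cav2 window holds CCAAT 182 bases and GGGCGG 9 bases before the start, the Cavin2 window holds CCAAT 140 bases before it, and the Ror1 window holds GGGCGG 128 bases before it. No matches in these 4 windows overlap each other. Of 32851 promoters of the same length, 12.4% hold TATAAA, 33.9% CCAAT, 32.7% GGGCGG, 12.03% CCGGAA, 12.6% GGAATG and 0.0335% that direct repeat. GC content was 59.6% for Cav1, 62% for Cav2, 40.4% for Cavin2 and 62.4% for Ror1, and the Cavin2 window had 2 CpG sites where those of Cav1 and Cav2 had 10 each.

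After filtering, 11988 and 15887 nuclei remained in the libraries labelled knockout 1 and 2, against 15528 and 6664 in those labelled wild type 1 and 2. The kept UMIs ranged over the libraries between 8623219 and 34819482, and the median UMIs per nucleus between 844.5 and 1401, with the library labelled knockout 2 the deepest by both measures. Mitochondrial genes held between 1.77% and 2.52% of the kept UMIs. Between 163 and 311 kept barcodes per library also occurred in another library. Clustering without the 8 members and without Cavin1 gave 18 clusters, of which 15 were named for 11 cell types from markers and 3 stayed unnamed. The 9 types with at least 50 nuclei in every library are compared below, and a type name such as adipocyte stands for nuclei resembling that type by its markers. The class called vascular endothelial held 915 nuclei, led by the endothelial genes Cyyr1, Btnl9, Adgrl4 and Cldn5 but also by the lymphatic gene Mmrn1. Inguinal fat of mice surrounds the mammary gland, and luminal epithelial and myoepithelial nuclei were among the classes.

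The caveola partners were distributed over the cell types in 3 ways. Cav1, Cav2, Cavin2 and Ehd2 were highest in adipocyte and vascular endothelial nuclei. Cavin3 and Pacsin3 were low in every class and had their highest mean in vascular endothelial nuclei. Adipocytes had rank 4 of the 9 classes for both and were above the mean of the other classes. For Pacsin3 that call was lost under several alternatives. Within the vascular endothelial class, Pacsin3 stood higher in nuclei scored mural than in those scored vascular. Cavin3 was above that mean in fibroblast progenitors too. Pacsin2 was broadly distributed with its highest mean in macrophages, and Ror1 was highest in fibroblast progenitor nuclei and lowest in adipocytes. Levels by class are CPM after 1 TMM scaling over all 36 sums of a class and a library, given as mean ± SD over the 4 libraries, so that genotype labels play no part in them. Each class was tested against the mean of the other 8 classes in 1 edgeR quasi-likelihood fit with the library as a block, with p-values adjusted over 17640 genes.

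**Figure D1:**
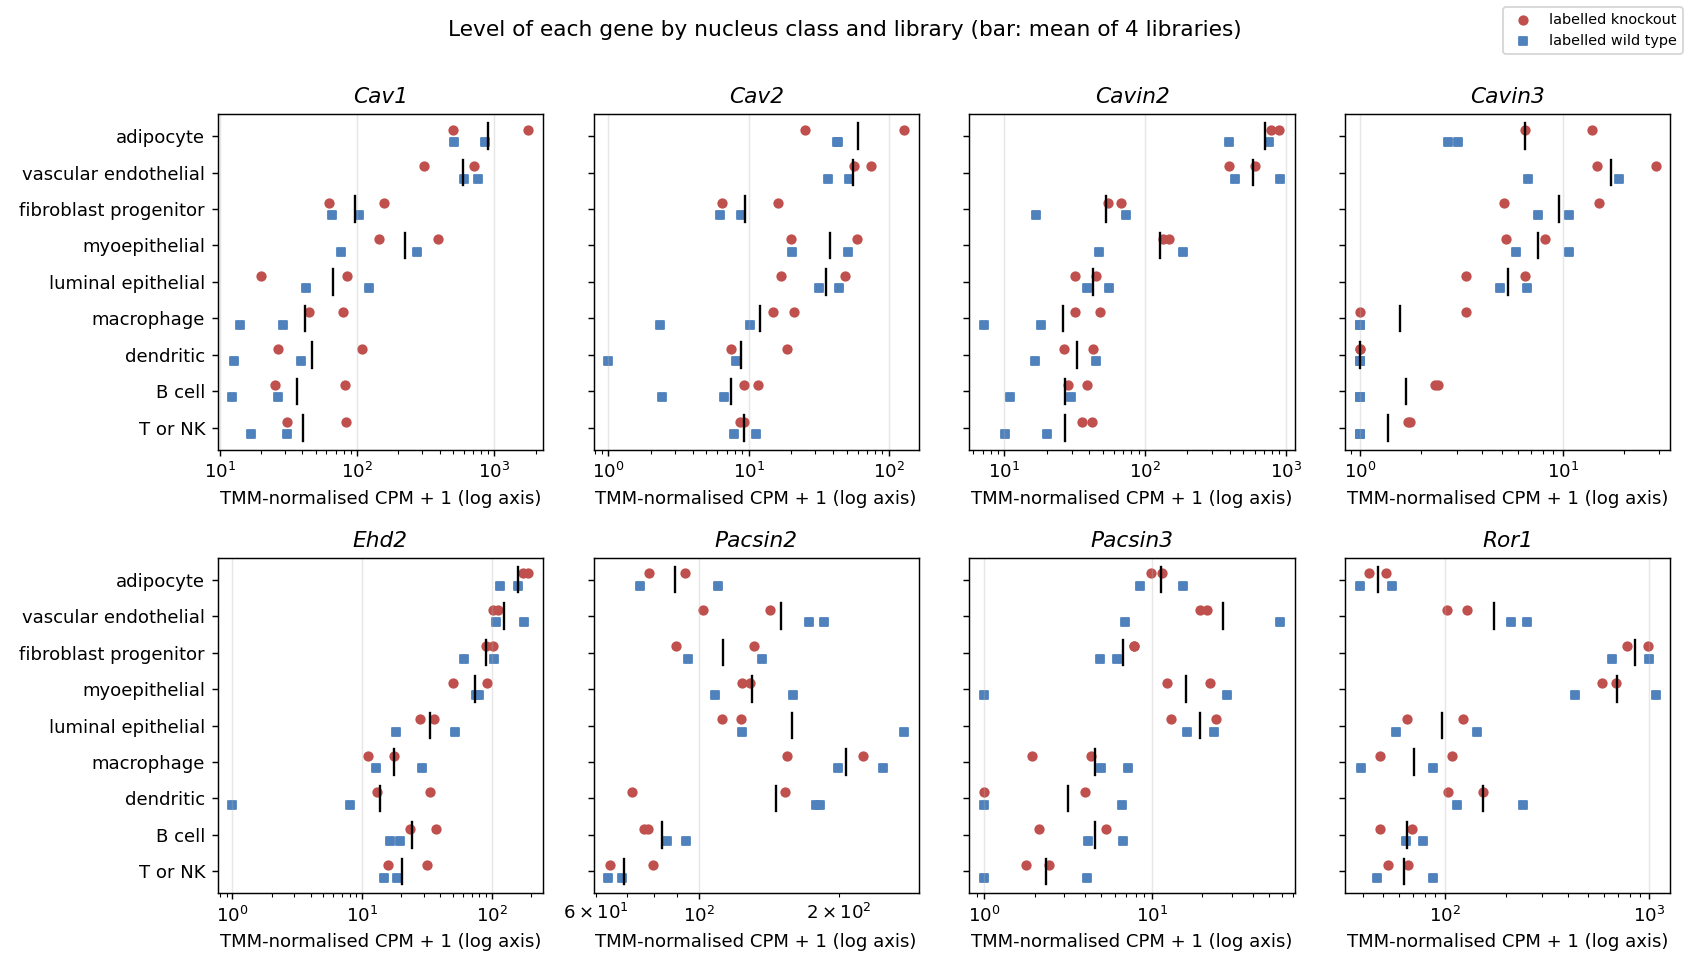
Level of each caveola partner in the 9 classes, as TMM-scaled CPM + 1 on a log axis whose range differs between genes. Points are the 4 libraries, coloured by label, and bars are means over them. Cav1 and Cavin2 stand highest in adipocyte and vascular endothelial nuclei, Pacsin2 stands within a narrow range over the classes, and Ror1 stands highest in fibroblast progenitor and myoepithelial nuclei.

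In adipocyte nuclei all 8 partners passed the test against the other classes, 6 of them higher and 2 lower. Of all genes tested in that contrast 40.2% were called, 21.2% higher and 19.1% lower. In vascular endothelial nuclei 6 of the 8 were higher and none lower, where 15.1% of all genes were called and 9.09% were called higher and 6.01% lower. In fibroblast progenitor nuclei 3 were higher and 1 lower, where 24% of all genes were called, 15.2% higher and 8.83% lower.

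Cav1, the main structural protein of the pit, had 501 and 1761 CPM in adipocyte nuclei of the libraries labelled knockout, against 512 and 853 CPM in those labelled wild type. The library labelled knockout 2 stands far above the other 3 in that class. In vascular endothelial nuclei Cav1 had 308 and 707 CPM in the libraries labelled knockout, against 757 and 596 CPM in those labelled wild type. The mean Cav1 level was 907 ± 593 CPM in adipocytes and 592 ± 201 CPM in vascular endothelial nuclei (SD, n = 4), and these ranges overlap. Next came myoepithelial nuclei with 221 ± 140 CPM, fibroblast progenitors with 95.8 ± 43.6, luminal epithelial nuclei with 66.2 ± 45.2 and dendritic nuclei with 45.8 ± 42.5. Macrophages with 40.8 ± 28.1, T or NK nuclei with 39.4 ± 28.9 and B cells with 35.7 ± 31.1 closed the order. Each class overlapped the next in its range over the libraries. Against the mean of the other classes, the log2 difference of Cav1 was 3.39 ± 0.24 (SE) in adipocytes (adjusted p = 5.01e-12) and 2.89 ± 0.29 in vascular endothelial nuclei (adjusted p = 1.10e-08). It was -0.18 ± 0.34 in fibroblast progenitors and did not pass.

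Cav1 UMIs were also found in cells not known for caveolae. With every nucleus thinned to 500 UMIs, 21.6% of adipocyte nuclei and 20% of vascular endothelial nuclei had a Cav1 UMI, against 2.78% of B cell nuclei and 2.42% of T or NK nuclei. Without thinning the shares were 45.1% and 36.9%, against 5.42% and 5.05%, at median depths of 1611 and 1044 UMIs against 821 and 871. A share at or below the lymphoid ones is read as background.

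Cav2, which needs caveolin-1 to reach the cell surface, followed Cav1 at the top of the order. In adipocyte nuclei it had 24.4 and 127 CPM in the libraries labelled knockout, against 42.5 and 42.0 CPM in those labelled wild type, and in vascular endothelial nuclei 55.2 and 74.2 CPM in the libraries labelled knockout, against 51.4 and 35.8 CPM in those labelled wild type. Both labelled groups overlap in adipocytes, where the libraries labelled knockout hold both the lowest and the highest value. The mean Cav2 level was 59.0 ± 46.2 CPM in adipocytes, 54.2 ± 15.8 in vascular endothelial, 36.8 ± 20.4 in myoepithelial and 34.4 ± 14.2 in luminal epithelial nuclei, and between 6.54 and 11.2 CPM in the other 5 classes. Every neighbour in this order overlapped the next. The log2 difference of Cav2 against the mean of the other classes was 1.86 ± 0.22 in adipocytes (adjusted p = 2.68e-10) and 1.86 ± 0.33 in vascular endothelial nuclei (adjusted p = 1.64e-05). Fibroblast progenitors were lower, by -1.11 ± 0.34 on the same scale (adjusted p = 0.0101), a call that was lost when only nuclei with at least 1000 UMIs were used (-0.92, adjusted p = 0.0530).

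Cavin2, which helps to shape the membrane and forms complexes with cavin-1, had 895 and 790 CPM in adipocyte nuclei of the libraries labelled knockout, against 752 and 396 CPM in those labelled wild type. In vascular endothelial nuclei it had 391 and 599 CPM in the libraries labelled knockout, against 905 and 435 CPM in those labelled wild type. The mean Cavin2 level was 708 ± 217 CPM in adipocytes and 583 ± 233 CPM in vascular endothelial nuclei (SD, n = 4), with overlapping ranges. The lowest vascular endothelial library, at 391 CPM, stood above the highest library of the next class, myoepithelial, with a mean of 127 ± 58.3 CPM and a highest value of 185 CPM. Means in the other 6 classes lay between 25.2 and 51.7 CPM, with each neighbour overlapping the next. The log2 difference of Cavin2 was 3.67 ± 0.17 in adipocytes (adjusted p = 1.67e-19) and 3.38 ± 0.20 in vascular endothelial nuclei (adjusted p = 4.53e-16). In fibroblast progenitors it was -0.59 ± 0.25 and did not pass (adjusted p = 0.0868), but was called lower with no low-count filter, with DESeq2 and after removal of the nuclei with the highest doublet scores (adjusted p between 0.0112 and 0.0491).

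Cavin3, which binds protein kinase C delta, was sparse. It had 13.8 and 27.8 CPM in vascular endothelial nuclei of the libraries labelled knockout, against 5.71 and 17.9 CPM in those labelled wild type, resting on 23 UMIs in all. The mean Cavin3 level was 16.3 ± 9.20 CPM there, 8.63 ± 4.32 in fibroblast progenitors, 6.52 ± 2.50 in myoepithelial nuclei, 5.54 ± 5.21 in adipocytes and 4.35 ± 1.58 in luminal epithelial nuclei, with overlapping ranges between neighbours. All 4 immune classes stood below these, without overlap between luminal epithelial nuclei and the next class, B cells, at 0.693 ± 0.801 CPM. No Cavin3 UMI was found in 845 dendritic nuclei, which allows a share of nuclei with a UMI of up to 0.355%. The fitted log2 differences of Cavin3 were 3.30 ± 0.58 in vascular endothelial nuclei (adjusted p = 1.01e-05), 2.41 ± 0.46 in fibroblast progenitors (adjusted p = 2.46e-05) and 1.58 ± 0.45 in adipocytes (adjusted p = 0.00326). Their size depends on the prior count of the fit, as 1 class is at 0 and several libraries of others are too. Cavin3 was not tested in these contrasts without the library labelled knockout 2, where it failed the filter on low counts.

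Ehd2, the ATPase that anchors caveolae at the membrane, had 173 and 189 CPM in adipocyte nuclei of the libraries labelled knockout, against 115 and 158 CPM in those labelled wild type. Its mean was 159 ± 31.5 CPM in adipocytes, 124 ± 34.0 in vascular endothelial nuclei, 88.2 ± 20.02 in fibroblast progenitors and 73.1 ± 17.6 in myoepithelial nuclei (SD, n = 4). The means of the other 5 classes lay between 12.8 and 32.4 CPM, and neighbouring ranges overlapped throughout the order. Ehd2 passed the test in all 3 contrasts, with log2 differences of 2.19 ± 0.17 in adipocytes (adjusted p = 1.47e-16), 1.87 ± 0.23 in vascular endothelial nuclei (adjusted p = 2.93e-09) and 1.22 ± 0.19 in fibroblast progenitors (adjusted p = 9.28e-07).

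Pacsin2, an F-BAR protein that bends the membrane at the neck of caveolae and at other sites, was found in all 9 classes. In macrophages it had 154 and 225 CPM in the libraries labelled knockout, against 249 and 198 CPM in those labelled wild type. The mean Pacsin2 level was 207 ± 40.7 CPM in macrophages and decreased over luminal epithelial (158 ± 78.6), vascular endothelial (150 ± 37.1), dendritic (146 ± 51.6), myoepithelial (129 ± 21.6) and fibroblast progenitor nuclei (112 ± 24.5) to adipocytes (88.1 ± 16.1), B cells (82.4 ± 7.999) and T or NK nuclei (68.1 ± 7.37). Each class overlapped the next. Adipocytes were lower than the mean of the other classes by -0.51 ± 0.16 on the log2 scale (adjusted p = 0.00600). This call was lost without the library labelled wild type 1 (-0.46, adjusted p = 0.0561) and with no low-count filter (-0.39, adjusted p = 0.0638). Vascular endothelial nuclei (0.36, adjusted p = 0.175) and fibroblast progenitors (-0.14) did not pass.

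Pacsin3, a related F-BAR protein known mainly from skeletal and heart muscle, was low in every class. Vascular endothelial nuclei had 18.4 and 20.4 CPM in the libraries labelled knockout, against 57.1 and 5.96 CPM in those labelled wild type, and the 2 libraries labelled wild type span the whole range. The mean Pacsin3 level was 25.5 ± 22.04 CPM there, 18.3 ± 5.50 in luminal epithelial, 14.9 ± 11.9 in myoepithelial and 10.3 ± 2.99 in adipocyte nuclei, which overlapped from one to the next. Adipocytes did not overlap with the next class, fibroblast progenitors, at 5.69 ± 1.41 CPM. Its log2 difference was 2.31 ± 0.41 in vascular endothelial nuclei (adjusted p = 1.31e-05) and 0.82 ± 0.29 in adipocytes (adjusted p = 0.0199). The vascular endothelial class is a mixture by its markers, as described below. In it, the 602 nuclei with most UMIs from the vascular list had 9 Pacsin3 UMIs (11.3 raw CPM). The 154 with most from the mural list had 16 (74.3 raw CPM). The part of the mural nuclei in the class value was not tested. The adipocyte call was lost when the library labelled knockout 2 was left out (0.57, adjusted p = 0.256), without the library labelled wild type 1 (0.96, adjusted p = 0.0536), with DESeq2 (adjusted p = 0.0671), with nuclei of at least 1000 UMIs (0.65, adjusted p = 0.105) and with coarser clusters (0.26, adjusted p = 0.480). The coarser adipocyte class is another set of nuclei: it holds 18913, against 8997 in the class used here, and 7879 of them were in unnamed clusters of the finer clustering.

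Ror1 had 772 and 979 CPM in fibroblast progenitor nuclei of the libraries labelled knockout, against 652 and 994 CPM in those labelled wild type. In myoepithelial nuclei it had 585 and 682 CPM in the libraries labelled knockout, against 434 and 1072 CPM in those labelled wild type. The labelled groups overlap in both classes. The mean Ror1 level was 849 ± 166 CPM in fibroblast progenitors and 693 ± 272 CPM in myoepithelial nuclei (SD, n = 4), and neither overlapped with the third class, vascular endothelial, at 172 ± 69.7 CPM. Adipocytes closed the order at 46.0 ± 7.75 CPM, with all 4 libraries between 37.6 and 54.2 CPM. Ror1 was higher in fibroblast progenitors by 2.98 ± 0.13 on the log2 scale (adjusted p = 1.48e-28) and lower in adipocytes by -1.76 ± 0.19 (adjusted p = 6.78e-12). In vascular endothelial nuclei the difference of 0.44 did not pass (adjusted p = 0.106), but passed once the library labelled knockout 1 was left out (0.63, adjusted p = 0.0190) and with DESeq2 size factors (0.53, adjusted p = 0.0434). It was 0.03 without the library labelled wild type 1. With nuclei thinned to 500 UMIs, 24.4% of fibroblast progenitor and 20.4% of myoepithelial nuclei had a Ror1 UMI, against 3.04% of T or NK nuclei. Without thinning these shares were 42.3% and 38.6% against 5.50%, at median depths of 1224 and 1245 against 871 UMIs. In adipocytes 2.71% had one after thinning and 6.04% before, so the thinned share was below that of T or NK nuclei and is read as background.

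**Figure D2:**
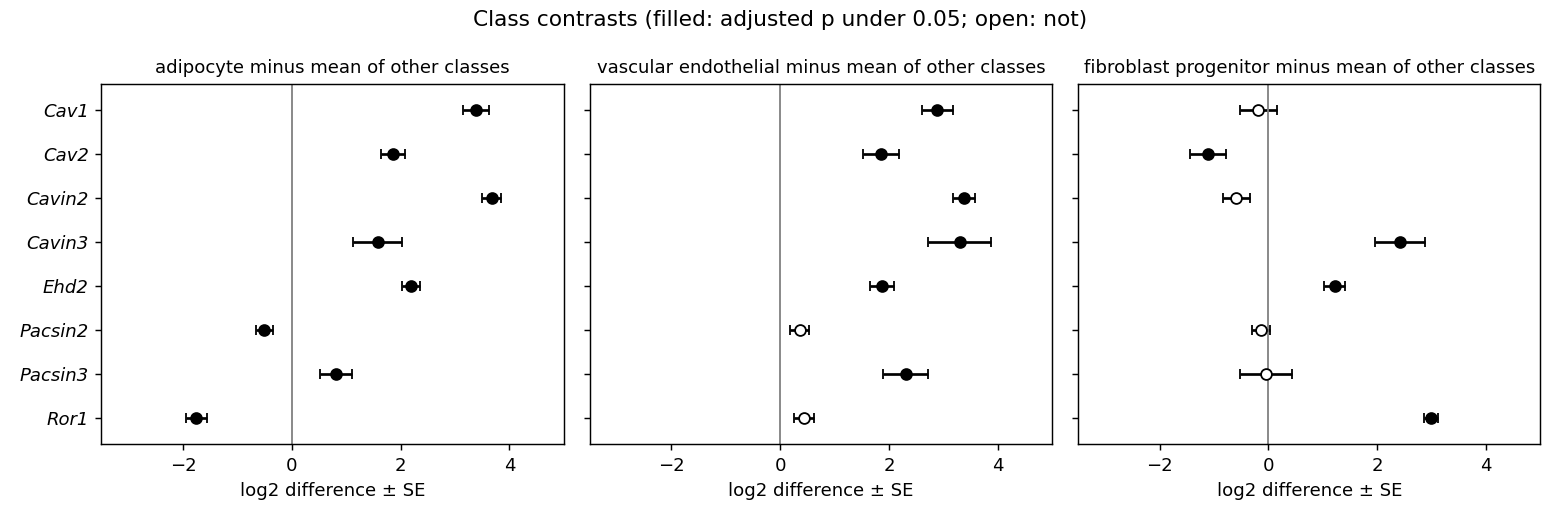
Log2 difference of each caveola partner between a class (adipocyte, vascular endothelial or fibroblast progenitor) and the mean of the other classes, with SE bars from the edgeR fit over 36 sums. Filled points passed the adjusted p threshold of 0.05 and open points did not. Cav1 and Cavin2 have differences above 2.8 in adipocyte and vascular endothelial nuclei, and Ror1 is at 2.98 in fibroblast progenitors and at -1.76 in adipocytes.

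Adipocytes and vascular endothelial nuclei, both known for dense caveolae, were also compared directly. Of the 8 partners 4 passed and all 4 were lower in adipocytes, where 26% of all genes were called and 11.7% were called lower. Ror1 was lower in adipocytes by -1.95 ± 0.24 on the log2 scale (adjusted p = 1.77e-09), Pacsin2 by -0.77 ± 0.22 (adjusted p = 0.00539), Pacsin3 by -1.32 ± 0.45 (adjusted p = 0.0213) and Cavin3 by -1.53 ± 0.56 (adjusted p = 0.0336). Cav1 (0.44, adjusted p = 0.492), Cavin2 (0.26, adjusted p = 0.575), Ehd2 (0.28, adjusted p = 0.506) and Cav2 (0.00, adjusted p = 0.996) did not pass, and Cav2 had a value below 0 in 5 of 10 alternatives. The number called was 1 without the library labelled wild type 1 and 2 without the library labelled knockout 1, with Ror1 among them each time. For Pacsin3, the 602 endothelial nuclei with most UMIs from the vascular marker list stood at 11.3 raw CPM (95% Poisson interval 5.18 to 21.5, counting error only), beside 8.69 (7.48 to 10.04) in adipocytes and the intervals overlap. By library those nuclei stood at 0 and 8.06 raw CPM in the libraries labelled knockout, against 30.8 and 0 in those labelled wild type, on 9 UMIs in all, so this count cannot place them above or below adipocytes. Ror1 stood at 76.8 raw CPM (58.8 to 98.7) in the same 602 nuclei. It was at 225 in the nuclei of the class with most UMIs from the lymphatic list and at 488 in those from the mural list. The part of these sets in the Ror1 difference was not tested. Without the library labelled wild type 1 the difference was -0.93 for Pacsin3 (adjusted p = 0.332), -0.68 for Pacsin2 (adjusted p = 0.0711) and -1.57 for Cavin3 (adjusted p = 0.0512).

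The classes were not uniform inside. In the raw CPM of summed clusters, Ror1 differed between the 2 fibroblast progenitor clusters. The cluster led by Penk, Lum and Lama2 had 810 and 1077 Ror1 CPM in the libraries labelled knockout, against 842 and 1391 CPM in those labelled wild type. The cluster led by Pi16, a gene of interstitial progenitors that serve as a reservoir for preadipocytes, had 209 and 244 CPM in the libraries labelled knockout, against 152 and 135 CPM in those labelled wild type. The lowest library of the first cluster stood above the highest of the second. Ror1 also differed between the 2 adipocyte clusters. The one led by Npr3 and Adrb3 had 52.7 and 51.8 Ror1 CPM in the libraries labelled knockout, against 62.1 and 55.0 in those labelled wild type. The one led by Fam13a and Nnat had 16.5 and 16.3 CPM in the libraries labelled knockout, against 19.0 and 28.6 in those labelled wild type. Again the 2 clusters did not overlap over the 4 libraries. Median depth was 1192 UMIs per nucleus in the cluster led by Npr3 and 2756 in that led by Fam13a. The part of depth in these Ror1 values was not tested. T or NK nuclei, given above as background, had 80.5 and 58.3 raw Ror1 CPM in the libraries labelled knockout, against 53.4 and 108 in those labelled wild type, and the cluster led by Fam13a lies below all of them. Clusters were formed on other genes of the same nuclei, and these cluster values are given without a test. How many of all genes separate the same clusters was not counted.

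Among luminal epithelial nuclei, the cluster led by the hormone receptor genes Pgr and Prlr had more Cav2 and Pacsin3 than the largest luminal cluster, led by Ltf. Cav2 had 32.5 and 116 raw CPM there in the libraries labelled knockout, against 85.9 and 55.1 in those labelled wild type. In the cluster led by Ltf, Cav2 had 11.6 and 21.97 raw CPM in the libraries labelled knockout, against 14.2 and 16.96 in those labelled wild type. No library of the first cluster overlapped the second, and how many of all genes separate these clusters was not counted. For Pacsin3 the values were 50.5 and 29.7 CPM in the libraries labelled knockout and 20.4 and 33.9 in those labelled wild type for the Pgr cluster. In the Ltf cluster they were 14.6 and 5.57 CPM in the libraries labelled knockout and 10.6 and 3.39 in those labelled wild type. An unnamed cluster of 339 nuclei, led by Serpina10, Pcdh15 and Cxcl13 and with 3 mural markers among its leading genes, had Ror1 at 974 and 947 raw CPM in the libraries labelled knockout, against 1105 and 897 in those labelled wild type, the level of the fibroblast progenitor cluster led by Penk.

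The vascular endothelial class was a mixture by its markers. Of its 915 nuclei, 602 had most UMIs from the vascular list, 110 from the lymphatic list and 154 from the mural list of pericyte and smooth muscle genes, 26 were tied and 23 had none. Over all libraries, Cav1 stood at 873 raw CPM (95% Poisson interval 809 to 940) in the nuclei scored vascular, at 381 (294 to 484) in those scored lymphatic and at 186 (133 to 253) in those scored mural. Cavin2 stood at 634 (579 to 691), 1245 (1085 to 1423) and 320 (249 to 406) in the same order. Ror1, summed over libraries, stood at 76.8 (58.8 to 98.7) in nuclei scored vascular, 225 (160 to 307) in those scored lymphatic and 488 (399 to 590) in those scored mural, and Pacsin3 stood at 11.3 (5.18 to 21.5), 34.6 (12.7 to 75.3) and 74.3 (42.5 to 121). Ehd2 lay between 125 and 150 CPM in the 3 sets. These values pool libraries that hold the sets in unequal numbers: nuclei scored lymphatic numbered 4 and 18 in the libraries labelled knockout, against 70 and 18 in those labelled wild type. Within each of the 4 libraries Cav1 was higher in nuclei scored vascular than in those scored lymphatic or mural. In the libraries labelled wild type, Cavin2 was higher in nuclei scored lymphatic (1551 and 1107 raw CPM) than in those scored vascular (774 and 429). In knockout 2 as labelled the Cavin2 values were close, at 683 against 650 raw CPM on 32 and 242 UMIs. In knockout 1 as labelled the lymphatic set was 4 nuclei with 3 Cavin2 and 0 Cav1 UMIs, too few to place either gene. Ror1 was higher in nuclei scored mural than in those scored vascular in 3 of 4 libraries, the exception being knockout 1 as labelled, with 107 against 123 raw CPM. The place of nuclei scored lymphatic in the Ror1 order varied. They had 0 and 64 raw CPM in the libraries labelled knockout, on 0 and 3 UMIs, where nuclei scored vascular had 123 and 37.6. In the libraries labelled wild type they had 239 and 531 raw CPM, where nuclei scored mural had 1136 and 325. The intervals cover counting error only, and the sets are described without a test.

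Over the 36 sums of a class and a library, the gene most like Cav1 by Pearson correlation of log2(CPM + 1), among 12032 genes with a mean of at least 10 CPM, was Cavin2 (r = 0.92), followed by Prkd1 (0.90) and Tspan12 (0.87). Cavin2 was in turn most like Cav1, Palmd (0.87) and Fabp4 (0.87), and Cav2 was most like Palmd (0.84), Mcam (0.82) and Fermt2 (0.82). Cav1 correlated with Cav2 at 0.82, with Ehd2 at 0.78, with Cavin3 at 0.73 and with Pacsin3 at 0.54, but with Ror1 at 0.11 and with Pacsin2 at 0.01. Ehd2 was most like Mpdz (0.91), Wwc2 (0.89) and Palm (0.87), and Ror1 was most like Antxr1 (0.89), Creb5 (0.88) and Gli3 (0.88). For the sparse genes, the nearest were Igfbp7, Cdc42bpa and Plscr4 for Cavin3 (0.86 to 0.87) and Kansl2, Zcchc14 and Desi2 for Pacsin3 (0.75 to 0.79). Fnip2, Tbc1d10a and Acer3 were nearest to Pacsin2 (0.78 to 0.80). These are descriptions over 9 classes in 4 libraries, and the sums share libraries and depth.

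The comparison by label asks whether the partners differ where Cavin1 differs. Differences below are the libraries labelled knockout minus those labelled wild type, with n = 2 per group, so a positive value means more in the libraries rich in Cavin1. CPM in these paragraphs are TMM-scaled within the comparison. None of the partners passed in all nuclei, adipocytes, fibroblast progenitors or vascular endothelial nuclei, or in any of the other 6 classes, by the edgeR quasi-likelihood test. DESeq2 also called 0 of them. Over all genes, 0.103% were called in all nuclei, 0.331% in adipocytes, 0.0238% in fibroblast progenitors and 1.25% in vascular endothelial nuclei. At an unadjusted p under 0.05 there were 0 of 8 members in all nuclei, 1 of 8 in adipocytes (Cavin3), 0 of 6 in fibroblast progenitors and 1 of 6 in vascular endothelial nuclei (Ror1). At that same threshold stood 1.18% of all genes in all nuclei, 3.52% in adipocytes, 3.71% in fibroblast progenitors and 8.81% in vascular endothelial nuclei.

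**Figure D3:**
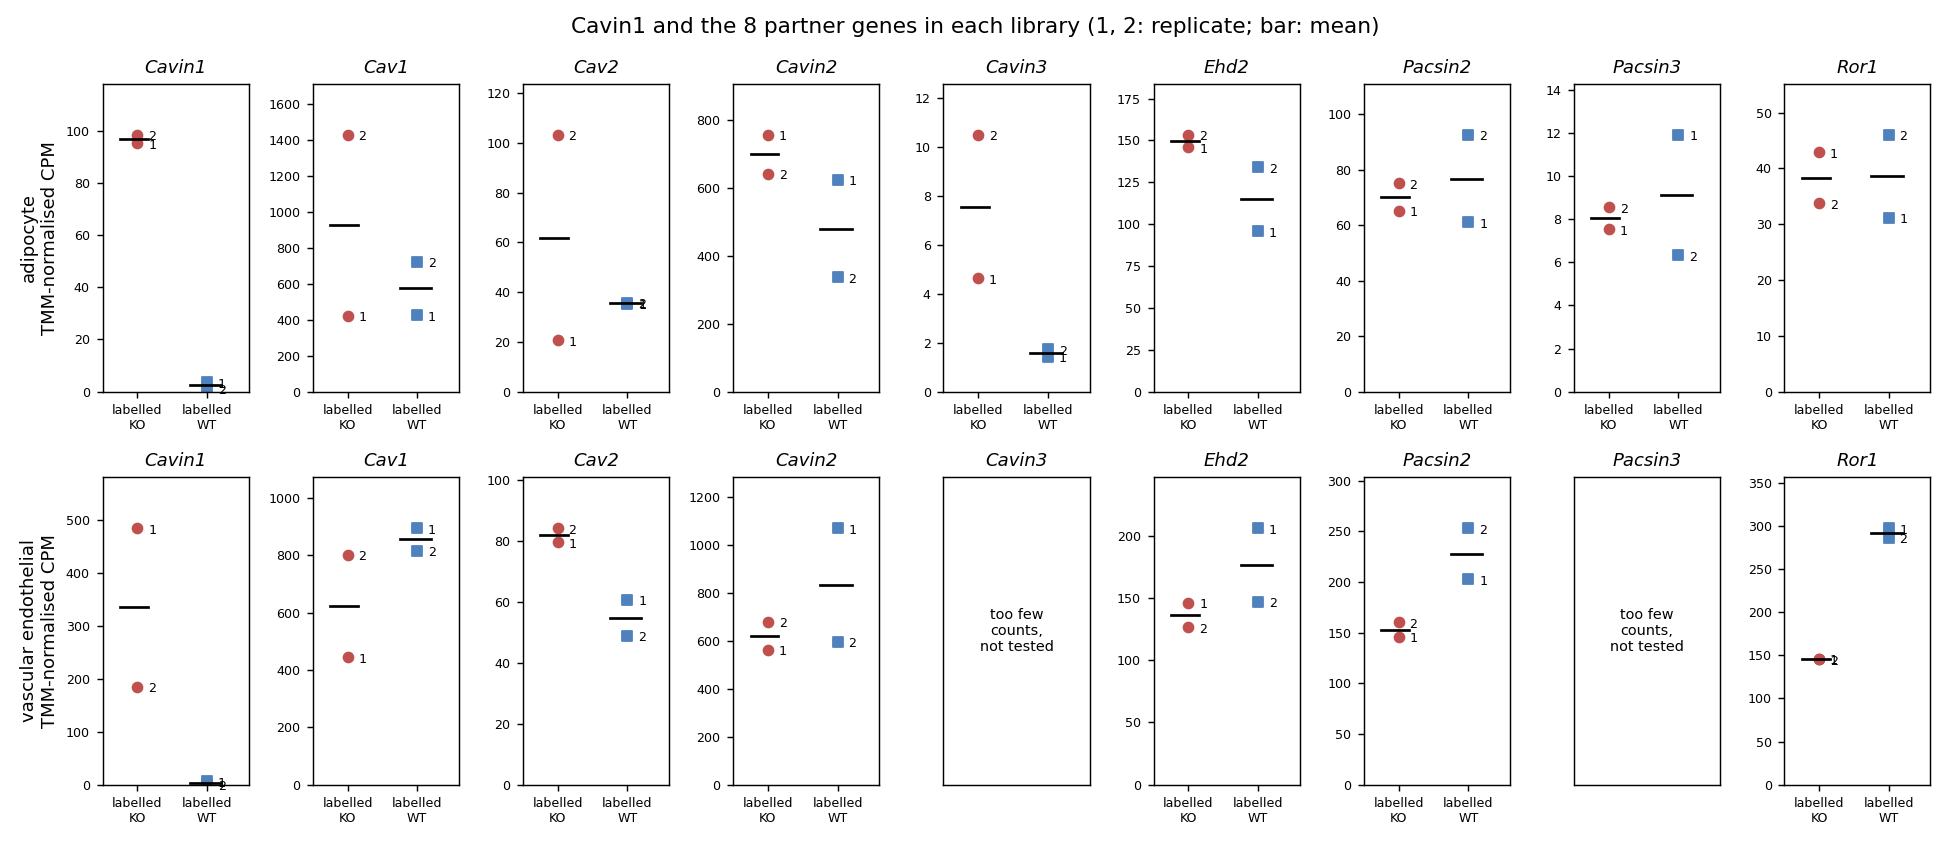
CPM of Cavin1 and the 8 caveola partners in each library, scaled within the comparison, for adipocyte and vascular endothelial nuclei, with the libraries labelled knockout left of those labelled wild type. Points are libraries numbered by replicate, bars are the means of 2, and each vertical axis has its own range starting at 0. Cavin1 is separated by label in both classes, whereas Cav1 in adipocytes is set apart by the library labelled knockout 2, at 1429 CPM.

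In all nuclei Cav1 had 133 and 548 CPM in the libraries labelled knockout, against 181 and 185 in those labelled wild type. The 2 libraries labelled knockout thus lie on either side of those labelled wild type. The log2 difference of 0.90 ± 0.51 did not pass (adjusted p = 0.999999) and was -0.47 without the library labelled knockout 2. Cav2 had 13.4 and 50.7 CPM in the libraries labelled knockout, against 25.8 and 18.0 in those labelled wild type, a log2 difference of 0.55 ± 0.44 that was -0.72 without the library labelled knockout 2. Cavin2 (0.56), Cavin3 (0.78), Pacsin3 (-0.12) and Ror1 (-0.03) overlapped between the groups too. Cavin3 was at -0.19 without the library labelled knockout 2 and at 1.32 without knockout 1, and Cavin2 at 1.44 without the library labelled wild type 1 and at -0.04 without wild type 2. Pacsin3 lay between -0.50 and 0.32 and Ror1 between -0.41 and 0.27 with 1 library left out. Ehd2 had 61.3 and 80.3 CPM in the libraries labelled knockout, against 51.4 and 54.9 in those labelled wild type, without overlap (0.41 ± 0.45), and Pacsin2 had 85.3 and 105.6 CPM against 105.8 and 123 in those labelled wild type, nearly touching (-0.26 ± 0.47). Such separation upward was found in 7.27% of all genes and downward in 7.6%. In sums over all nuclei, fewer cells of a type and less RNA per cell cannot be told apart. Adipocytes made up 17.8% and 18.4% of nuclei in the libraries labelled knockout, against 19.4% and 14.1% in those labelled wild type. Of the 14 adipocyte markers, all 14 had a label difference above 0 in all nuclei (median 0.77), and 1 was called higher. They summed to 3160 and 6821 raw CPM in the libraries labelled knockout, against 3760 and 2406 in those labelled wild type, with 0 at 0, and their part in the partners' values was not tested.

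In adipocyte nuclei the same library stood apart. Cav1 had 423 and 1429 CPM in the libraries labelled knockout, against 424 and 724 in those labelled wild type, and the groups overlap. The log2 difference was 0.69 ± 0.52 (unadjusted p = 0.183, edgeR, n = 2 per group, not passing after adjustment over all genes), and -0.44 without the library labelled knockout 2. Cav2 had 20.6 and 103 CPM in the libraries labelled knockout, against 35.3 and 35.7 in those labelled wild type (0.82 ± 0.50, not called). Here the library labelled knockout 1 is the lowest and knockout 2 the highest. With the library labelled knockout 1 left out Cav2 passed (1.56, adjusted p = 0.0456), and with knockout 2 left out its difference was -0.79. The level of Cav1 in that library was also the highest of the 4 in B cells, at 106 CPM against between 14.5 and 32.5 in the other 3, and in T or NK nuclei, at 103 CPM against between 19.2 and 37.4. That library is the deepest, and the part of depth or of free RNA in the Cav1 level was not tested.

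Of the cavins, Cavin2 had 756 and 641 CPM in adipocyte nuclei of the libraries labelled knockout, against 623 and 336 in those labelled wild type, without overlap and without a call (0.54 ± 0.48, and between 0.13 and 1.06 with 1 library left out). Cavin3 had 16 and 98 UMIs in the libraries labelled knockout, against 8 and 3 in those labelled wild type, or 4.64 and 10.5 CPM against 1.42 and 1.73. Both libraries labelled knockout lie above both labelled wild type, and the log2 difference of 2.33 ± 0.73 reached an unadjusted p of 0.00177 but an adjusted p of 0.259. With knockout 1 as labelled left out, the Cavin3 difference was 2.79 and passed (adjusted p = 0.0260). With knockout 2 left out, which holds 98 of the UMIs, it was 1.58 and did not (adjusted p = 0.968). Ehd2 had 146 and 153 CPM in the libraries labelled knockout, against 95.6 and 134 in those labelled wild type, again without overlap and without a call (0.39 ± 0.40, and between 0.16 and 0.62 with 1 library left out). Separation upward was shown by 3 of 8 partners, where 12.7% of all genes in adipocytes did so, and downward by 0, where 11.6% did. Pacsin2 (-0.12), Pacsin3 (-0.23) and Ror1 (0.00) overlapped between the groups. The adipocyte cluster led by Fam13a and Nnat made up 10.3% and 35.2% of the class in the libraries labelled knockout, against 61.1% and 20.4% in those labelled wild type. Within either adipocyte cluster alone, an alternative added after seeing the data, 0 partners were called, and the Cav1 difference was 0.74 and 0.65.

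**Figure D4:**
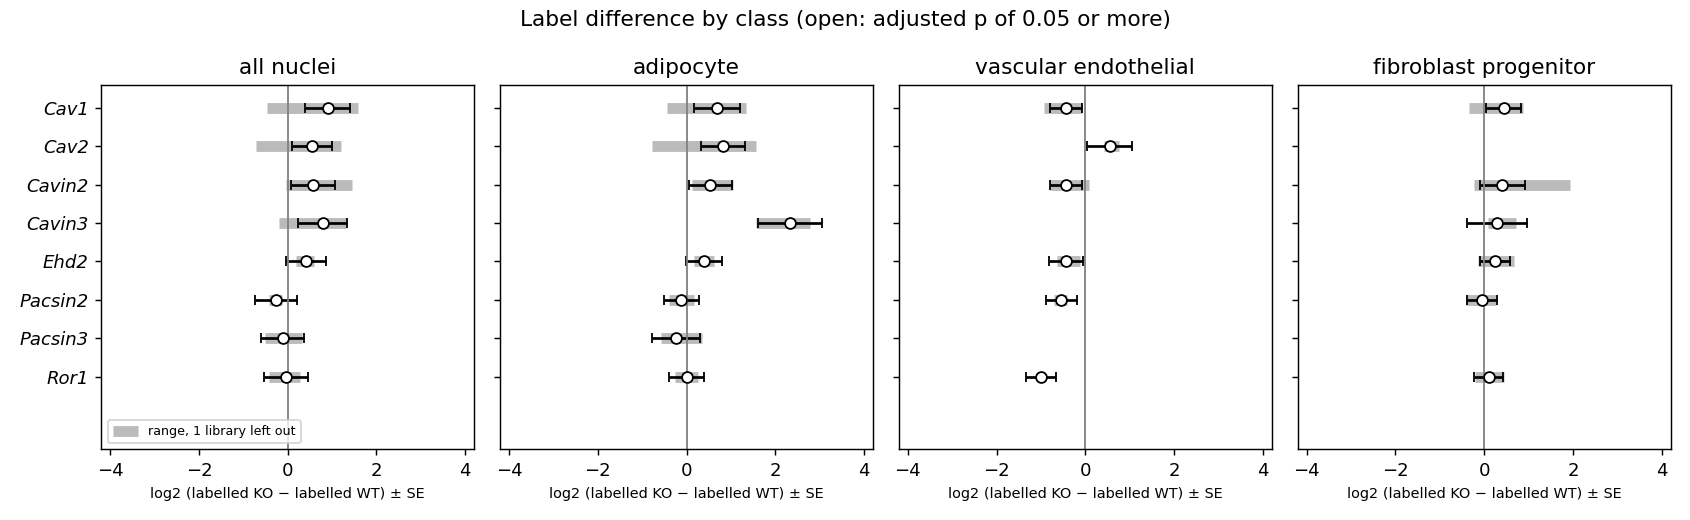
Log2 difference, libraries labelled knockout minus libraries labelled wild type, of the 8 caveola partners in all nuclei and in 3 classes, with SE bars from the edgeR fits. Grey bands span the values with 1 library left out, and members with too few counts have no point. All points are open because none passed the adjusted p threshold of 0.05, and the grey band of Cav1 in adipocytes reaches -0.44.

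In vascular endothelial nuclei 5 of the 6 partners tested had log2 differences below 0. Ror1 had 146 and 145 CPM in the libraries labelled knockout, against 297 and 286 in those labelled wild type, with the 2 libraries of each label close together. The log2 difference of -1.002 ± 0.34 had an unadjusted p of 0.00751 and an adjusted p of 0.229, and lay between -1.04 and -0.96 with any 1 library left out. Cav1 had 444 and 803 CPM in the libraries labelled knockout, against 895 and 817 in those labelled wild type (-0.44 ± 0.36, adjusted p = 0.867), and its difference was -0.074 with knockout 1 left out and -0.94 with knockout 2 left out. Pacsin2 had 146 and 160 CPM in the libraries labelled knockout, against 203 and 253 in those labelled wild type (-0.54 ± 0.35). Neither group overlaps the other, and the same holds for Ehd2, with 146 and 126 CPM in the libraries labelled knockout, against 206 and 147 in those labelled wild type (-0.43 ± 0.38, and -0.12 with wild type 1 left out). Cav2 was the exception, at 79.6 and 84.3 CPM in the libraries labelled knockout against 60.8 and 49.0 in those labelled wild type (0.55 ± 0.50). By this scaling Cav1, Ehd2, Pacsin2 and Ror1 separated downward and Cav2 upward, where 19% and 18.8% of all genes did. Cavin2 overlapped (-0.43, and 0.074 without the library labelled wild type 1). The nearest libraries of the labels were close for Cav1 (803 against 817 CPM) and for Ehd2 (146 against 147 CPM). Under the scaling over all classes, used above for levels by class, Cav1 and Ehd2 overlapped between the labels. Pacsin2, Ror1 and Cav2 stayed apart under it. Cavin3 and Pacsin3 had too few UMIs in this class to be tested.

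The makeup of that class moved with the label. The lymphatic markers summed to 317 and 980 raw CPM in the libraries labelled knockout, against 4366 and 2147 in those labelled wild type, with 6 of the 8 markers tested, all 6 below 0 and 2 called lower. The mural markers summed to 2173 and 1408 raw CPM in the libraries labelled knockout, against 1081 and 1239 in those labelled wild type, with 8 of 10 tested, all above 0 and 0 called. The adipocyte markers summed to 2576 and 3378 raw CPM in the libraries labelled knockout, against 1834 and 1352 in those labelled wild type, with 12 of 14 tested, 11 above 0 and 1 called higher. The fibroblast progenitor markers summed to 1143 and 1574 raw CPM in the libraries labelled knockout, against 974 and 868 in those labelled wild type, with 11 of 14 tested, 9 above 0 and 1 called higher. The vascular markers summed to 4851 and 7988 raw CPM in the libraries labelled knockout, against 6499 and 6659 in those labelled wild type, and overlapped. At most 1 marker of the lymphatic, vascular, adipocyte or fibroblast progenitor lists was at 0 in any library, and at most 2 of the mural list. In the nuclei with most UMIs from the vascular list alone, Ror1 had 123 and 37.6 raw CPM in the libraries labelled knockout (15 and 14 UMIs), against 82.0 and 152 in those labelled wild type (16 each), and the groups overlap. In the same nuclei Pacsin2 had 82.1 and 91.4 raw CPM in the libraries labelled knockout (10 and 34 UMIs), against 179 and 172 in those labelled wild type (35 and 18 UMIs). Ehd2 had 90.4 and 121 in the libraries labelled knockout (11 and 45 UMIs), against 154 and 162 in those labelled wild type (30 and 17 UMIs). Pacsin2 and Ehd2 were thus apart by label there. In the whole class 19% of all genes were apart downward, and the share in these nuclei was not computed. Cav1 had 493 and 914 in the libraries labelled knockout, against 1076 and 791 in those labelled wild type, and overlapped in these nuclei. In the whole class Cav1 was apart when scaled within the comparison but overlapped under the scaling over all classes. Cav2 had 73.9 and 69.9 in the libraries labelled knockout, against 51.3 and 47.6 in those labelled wild type, on 5 to 26 UMIs per library, and Cavin2 overlapped. These values were not tested.

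In fibroblast progenitors 0 of 6 partners separated by label in either direction, where 14.4% of all genes did so upward and 14.6% downward. Ror1, the most abundant partner of this class by its own order over classes, had 761 and 879 CPM in the libraries labelled knockout, against 598 and 931 in those labelled wild type (0.10 ± 0.33). The Pi16 cluster, low in Ror1, made up 8.47% and 25.8% of the class in the libraries labelled knockout, against 34.0% and 34.3% in those labelled wild type, and its part in the Ror1 value was not tested. Cav1 had 60.9 and 139 CPM in the libraries labelled knockout, against 59.1 and 95.3 in those labelled wild type (0.44 ± 0.40), a difference that was -0.34 without the library labelled knockout 2. The Ehd2 difference was 0.25 ± 0.34, and -0.14 without the library labelled wild type 1. The Cavin2 difference of 0.41 was 1.92 without the library labelled wild type 1 and -0.23 without wild type 2. Of the adipocyte markers 13 of 13 tested were above 0 in this class (median 0.81, 0 called), with sums of 815 and 1663 raw CPM in the libraries labelled knockout, against 955 and 418 in those labelled wild type, and 0 of 14 at 0. Their part in these values was not tested. Cav2 and Pacsin3 had too few UMIs to be tested.

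In the other 6 classes 34 pairs of a partner and a class could be tested and 0 were called by edgeR or DESeq2, with 5 and 4 at an unadjusted p under 0.05. The share of all genes called was 0.0473% in B cells, 0.0373% in T or NK nuclei, 0.018% in dendritic, 0.0118% in luminal epithelial, 0.0109% in macrophage and 0.00922% in myoepithelial nuclei. At an unadjusted p under 0.05 edgeR placed 1.46% of all genes in B cells, 1.11% in T or NK nuclei, 1.63% in macrophages and at most 6.63% in any of the 6. Those 5 were Cav1 in B cells, T or NK nuclei and macrophages and Cavin2 in T or NK nuclei and macrophages, all higher in the libraries labelled knockout. In macrophages Cav1 had 13 and 169 UMIs in the libraries labelled knockout, against 10 and 9 in those labelled wild type. Cavin2 had 14 and 66 UMIs in the libraries labelled knockout, against 13 and 2 in those labelled wild type. Adipocyte markers had positive label differences in each of the other 6 classes as well: 13 of 13 tested were above 0 in B cells (median log2 difference 1.08), 14 of 14 in T or NK nuclei (0.96), 10 of 10 in macrophages (1.05), 14 of 14 in myoepithelial nuclei (1.03), 7 of 7 in dendritic nuclei (1.43) and 12 of 13 in luminal epithelial nuclei (1.11), with 0 called. Their sums were 729 and 1363 raw CPM in B cells of the libraries labelled knockout, against 650 and 402 in those labelled wild type. In T or NK nuclei they were 747 and 1255 in the libraries labelled knockout, against 618 and 453 in those labelled wild type. In macrophages they were 932 and 1247 in the libraries labelled knockout, against 730 and 448 in those labelled wild type. At most 3 of the 14 markers were at 0 in any library of these 3 classes, and their part in the Cav1 and Cavin2 values was not tested. Without the library labelled wild type 1, Pacsin2 was called lower in luminal epithelial nuclei (-1.24, adjusted p = 0.00968) and Cav1 higher in myoepithelial nuclei (1.75, adjusted p = 0.00425, beside 0.57 with all libraries and -0.17 without the library labelled knockout 2). The adipocyte markers of myoepithelial nuclei summed to 541 and 1382 raw CPM in the libraries labelled knockout, against 573 and 266 in those labelled wild type, with 0 of 14 at 0, and their part in that call was not tested. The luminal cluster led by the milk protein genes Lalba and Csn2 held 287 and 72 nuclei in the libraries labelled knockout, against 1435 and 1 in those labelled wild type. Most of it thus lies in the library left out, and its part in the Pacsin2 call was not tested.

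Whether the label difference itself differed between classes was tested with an interaction term. Between adipocytes and vascular endothelial nuclei 0 of 8 partners passed with edgeR or DESeq2 (3 and 2 at an unadjusted p under 0.05), where 0.505% of all genes were called and 6.24% had an unadjusted p under 0.05 with edgeR. The 3 were Cav1 (interaction 1.02 ± 0.37 on the log2 scale, adjusted p = 0.360), Cavin2 (0.92 ± 0.37, adjusted p = 0.502) and Ror1 (0.97 ± 0.47, adjusted p = 0.767), each with a positive value meaning a higher difference in adipocytes. The makeup of the vascular endothelial class moved with the label, as given above, and its part in these values was not tested. Between adipocytes and fibroblast progenitors 0 of 8 passed with either tool (1 and 0 at an unadjusted p under 0.05), where 0.202% of all genes were called and 5.80% had an unadjusted p under 0.05 with edgeR. The 1 was Cavin3 (2.21 ± 0.79, adjusted p = 0.513).

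Other genes of the same membrane systems were counted beside the partners. None of the 7 paralogs of the members (such as Cav3, Ehd4 and Pacsin1), 11 clathrin and dynamin genes, 2 flotillins, 12 genes of caveola cargo and signalling or 10 genes of cholesterol and sphingomyelin handling was called by label in any comparison. In adipocytes the median log2 difference by label was 0.46 over the 8 partners, 0.44 over 6 tested paralogs and 0.01 over the clathrin and dynamin genes, beside 0.02 over all genes. The 14 adipocyte markers in the same class had a median of 0.43, with 11 above 0 and 0 called, and summed to 10730 and 19320 raw CPM in the libraries labelled knockout, against 11740 and 10370 in those labelled wild type, highest in the library labelled knockout 2. Their part in the partners' values was not tested. Over 6 partners in vascular endothelial nuclei it was -0.43, beside 0.01 over all genes. In the contrast of adipocytes with the other classes, 0 clathrin and dynamin genes were higher and 1, Dnm1, was lower, and 0 of 2 flotillins were called. Of the cargo and signalling genes 4 were higher and 6 lower, with Cd36, a fatty acid carrier (3.46), Slc2a4, the insulin-responsive glucose carrier (3.24), and Nos3, the endothelial nitric oxide synthase (2.63), as the 3 with the largest differences. Of the cargo genes 7 of 12 were higher in vascular endothelial nuclei and 2 lower, led by Cd36 (3.88), the receptor Pdgfrb (3.54) and Nos3 (3.51). Pdgfrb is also on the list of mural markers, and 154 nuclei of this class were scored mural. Their part in the Pdgfrb differences of this class, also that against adipocytes below, was not tested. In fibroblast progenitors 6 of 12 were higher and 1 lower, and the 3 largest differences over the lists were those of Egfr (4.29), Pdgfrb (3.74) and Dnm1 (3.48). Between adipocytes and vascular endothelial nuclei the 3 largest were those of Pdgfrb (-4.12), Ehd4 (-3.18) and Plvap (-3.03), the last a protein of endothelial diaphragms. These genes were not kept out of the clustering as the 8 partners were, and their class differences are given as a description. Whether they were among its 2000 variable genes was not looked up. Of the 8 partners and Cavin1, 0 were among those variable genes, so keeping them out removed nothing.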

How the data were processed

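The deposited matrices contain whole UMI counts that the authors left unscaled. Per the submitters' processing notes GRCm38 (mm10) and Seurat 4.3.0 were used; no source used here names the aligner. Nuclei came through a Singleron GEXSCOPE kit and an Illumina NovaSeq sequencer, per the labels. The lowest total per barcode in the files is 500 UMIs. Barcodes were kept from 500 UMIs and 300 genes upward, where mitochondrial UMIs did not exceed 10%. Scrublet called 2 doublets in all, so doublet calling did not work and none were removed.

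Members, gene lists and tests were chosen with earlier results of these data known. Clusters came from scanpy 1.11.5 (2000 variable genes, 30 components, 15 neighbours, Leiden resolution 1) without the 8 members and Cavin1. A cluster was named when at least 3 markers of a type were among its 100 leading genes, more than of any other type, unless its top 10 held more markers of another type than of its own (1 cluster with 3 mural markers stayed unnamed by this) or its nuclei were far shallower than their library with none of its markers in the top 10. Counts were summed per class and library, filtered with filterByExpr, TMM-scaled and tested with edgeR 4.0.16 (R 4.3.3; glmQLFit, robust; two-sided; Benjamini-Hochberg over all genes tested, threshold 0.05). Within a class, labels were compared with n = 2 libraries each. Class contrasts used 1 fit with the library as a block. Errors of log2 differences are SE. The script was tested on simulated data with 200 genes changed 4-fold. By label it recovered 59.5% of them in all nuclei and 89.5% in adipocytes. It recovered 100% in adipocytes against other classes and 34% in the interaction of adipocytes with vascular endothelial nuclei. Of its calls, 4.03%, 6.28%, 6.54% and 2.86% were false in the same order. Raw CPM carry no TMM factor. DESeq2 1.42.0 was the other tool, and limma 3.58.1 was used for classes at equal shares.

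Named genes are the 8 members in every comparison, Cavin1, the genes of the lists past the threshold by label, the 3 of the lists with the largest class differences past the threshold, and the 3 genes most like each member. Cluster detail and leading genes were chosen after their values were seen. Promoters come from RefSeq, which held 7 of the 8 members; all 4 windows shown begin at the first start listed. Alternatives were another scaling, no low-count filter, DESeq2, nuclei with at least 1000 UMIs and 500 genes, nuclei in the top 5% of doublet scores removed, resolution 0.5, each library left out, and the replicate number as a block.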

Additional observations from a re-analysis of the deposited data

How the results depend on the processing

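Of 1158 differences of single members recomputed under an alternative, 27 changed their side of the threshold, and 99 had another sign, none of them called under either setting. By label, 0 members were called in adipocytes under every alternative run except without the library labelled knockout 1, which gave 2 (Cav2 and Cavin3), so the range over libraries left out was 0 to 2. In the other 6 classes it was also 0 to 2, with 2 without the library labelled wild type 1. In fibroblast progenitors against the other classes, 2 members were called with at least 1000 UMIs per nucleus (Ehd2 and Ror1; Cavin3 failed the filter). In adipocytes against vascular endothelial nuclei, 1 was called with no low-count filter, 2 with at least 1000 UMIs, and 1 to 3 with 1 library left out. There the differences of Cav1, Cavin2 and Ehd2, not called, turned to -0.51, -0.65 and -0.49 with resolution 0.5 (whose adipocyte class has 18913 nuclei against 8997 and so is another set), and that of Cav2, below 0 in 5 of 10 alternatives, to -0.76 with resolution 0.5 and to -0.12 with DESeq2 size factors, which moved the median of all genes by more than 0.1, to -0.05 against 0.07. The causes were not tested.

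The replicate numbers are shared by the groups, but nothing states a pairing. The difference of replicate 1 minus replicate 2 correlated at -0.611 between the groups over 28075 genes. With the replicate block 0 members were called in each label comparison; of all genes it called 4 in all nuclei, 14 in adipocytes and 122 in vascular endothelial nuclei, against 29, 61 and 71 without it. Of 72 mean levels by class, 4 moved by more than 1 SD with resolution 0.5 and 5 with at least 1000 UMIs; of 72 shares, 66 moved without thinning. Cavin3 and Pacsin3 are limited by depth, at 23 and 36 UMIs in vascular endothelial nuclei.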
